A study of Mus musculus with 4 samples.

Results

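The genes described here are 10 regulators of mineralization and proteins of the bone matrix, namely Alpl, Enpp1, Phospho1, Mgp, Spp1, Ibsp, Bglap, Bglap2, Dmp1 and Phex. They were taken by symbol from the count matrices, as 10 of the 32285 genes counted, and each of the 10 had at least 25 UMIs (unique molecular identifiers, each standing for 1 captured RNA molecule) in mesenchymal cells over the 4 libraries. The libraries were 10x Genomics single-cell RNA libraries of tibial muscle from Nse-Bmp4 mice on the C57BL/6 background, 6 to 8 weeks old. The first library was Uninjured, and the other 3 were made 1, 3 or 7 days after the injury (dpi) by cardiotoxin (CTX), a snake venom toxin that destroys muscle fibres. Nse-Bmp4 mice carry mouse Bmp4, a bone-inducing growth factor, behind the rat neuron-specific enolase promoter, and they serve as a model of heterotopic ossification, in which bone forms in soft tissue. All 4 libraries, the Uninjured one included, came from this genotype, and no wild-type library was analysed here. Each library was a pool of 3 tibial muscles digested with collagenase, so a time point had 1 sample, no test between time points was possible, and no value below has a replicate check.

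Mineral forms in cartilage and bone when phosphate is freed and the inhibitors of crystal growth are removed. Tissue-nonspecific alkaline phosphatase (Alpl) hydrolyses pyrophosphate, a crystal inhibitor that the ectoenzyme Enpp1 produces, and Phospho1 releases phosphate inside matrix vesicles. Mgp, a vitamin K-dependent protein, keeps cartilage and vessel walls from calcifying, while the acidic phosphoproteins Spp1 (osteopontin), Ibsp (bone sialoprotein) and Dmp1 bind mineral, osteocalcin (Bglap, Bglap2) is the vitamin K-dependent protein of the osteoblast, and Phex is a membrane peptidase of bone cells that governs phosphate balance and degrades inhibitory peptides. Where bone forms through cartilage, hypertrophic chondrocytes that make type X collagen (Col10a1) mineralize their matrix first, and osteoblasts, which need the transcription factor Sp7, follow.

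The promoters of 4 of the genes are shown because they belong to members whose levels differed strongly between the libraries and cell classes below, and because they differ in the short elements they hold. Each run is the 250 bases before the RefSeq transcription start, 5′ to 3′ on the gene's own strand, from RefSeq on GRCm38.p6. Capitals mark ACCACA (the Runx core), CCAAT (the CCAAT box) and TATAAA (the TATA box), searched on both strands, so that ATTGG is the reverse complement of CCAAT and TTTATA that of TATAAA.
Ibsp: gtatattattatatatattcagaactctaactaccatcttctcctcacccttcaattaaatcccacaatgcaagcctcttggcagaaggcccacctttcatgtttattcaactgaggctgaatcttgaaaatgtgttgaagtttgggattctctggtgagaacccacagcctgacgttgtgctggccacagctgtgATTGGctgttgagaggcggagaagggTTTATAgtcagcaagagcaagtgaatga
Spp1: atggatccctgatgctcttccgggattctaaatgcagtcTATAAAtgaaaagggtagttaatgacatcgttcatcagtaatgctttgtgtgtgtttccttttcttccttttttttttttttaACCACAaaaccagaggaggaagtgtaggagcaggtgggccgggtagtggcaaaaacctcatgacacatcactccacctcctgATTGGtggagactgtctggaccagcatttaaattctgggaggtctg
Bglap: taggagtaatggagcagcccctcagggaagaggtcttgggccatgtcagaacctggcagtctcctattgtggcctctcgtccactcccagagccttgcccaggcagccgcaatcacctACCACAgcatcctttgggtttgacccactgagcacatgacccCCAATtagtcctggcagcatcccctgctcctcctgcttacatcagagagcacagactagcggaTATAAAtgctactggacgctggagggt
Alpl: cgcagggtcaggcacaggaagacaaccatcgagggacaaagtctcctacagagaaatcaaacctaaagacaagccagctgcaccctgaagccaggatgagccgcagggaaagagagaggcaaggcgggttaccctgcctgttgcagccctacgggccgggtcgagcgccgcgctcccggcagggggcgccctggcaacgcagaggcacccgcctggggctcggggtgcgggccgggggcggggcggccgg
These runs lie at chr5:104299037-104299286 (plus strand) for Ibsp, chr5:104434861-104435110 (plus strand) for Spp1, chr3:88384467-88384716 (minus strand) for Bglap and chr4:137796385-137796634 (minus strand) for Alpl. The RefSeq start of Ibsp lies inside the GENCODE gene given below, so part of its run overlaps that gene. Bglap held all the motifs, with ACCACA starting at -132, CCAAT at -90 and TATAAA at -27 from the start. Ibsp held ATTGG at -54 and TTTATA at -28, and Spp1 held ACCACA at -128, ATTGG at -46 and TATAAA at -211. The Alpl run held none of them and had 68.4% G and C bases. RefSeq promoters were matched for 8 of the 10 members, not for Mgp and Bglap2. ACCACA was also found in Dmp1 and Enpp1 and ATTGG in Dmp1 and Phospho1, and no motif was found in Phex. Over all 32851 promoters of this length, 14.0% held ACCACA, 33.8% CCAAT and 12.4% TATAAA on either strand, and a match is a run of letters, not a shown binding site.

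On GRCm38, Dmp1 (chr5:104202613-104214102), Ibsp (chr5:104299171-104311469) and Spp1 (chr5:104435118-104441050) lie on the plus strand, with Mepe (chr5:104325329-104338611) between Ibsp and Spp1. Bglap2 (chr3:88377736-88378699) and Bglap (chr3:88383501-88384464) are neighbours on the minus strand and near copies of each other. Of the runs of 50 bases in the Bglap transcript, 74.7% also occur in Bglap2, and 88.2% of those in Bglap2 occur in Bglap or in the third copy, Bglap3, so the split of reads among the copies is uncertain. Alpl is at chr4:137741733-137796384 (minus), Enpp1 at chr10:24637914-24712159 (minus), Phospho1 at chr11:95824499-95832140 (plus), Mgp at chr6:136872435-136875823 (minus) and Phex at chrX:157162075-157415312 (minus).

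The libraries held 11722 to 23752 barcodes and 91146335 to 129007669 UMIs, and 9641 to 20301 cells per library were kept. Pairs of libraries had 30 to 95 barcodes in common. Classes were gated on 8 marker genes each, none of them a member, and the median cell of every class had 4 to 7 of its own markers. The MSC lineage (mesenchymal stem cell lineage) gate held 8420, 3864, 6330 and 10882 cells in the Uninjured, 1, 3 and 7 dpi libraries, with medians of 9160, 8094, 5823 and 3245.5 UMIs per cell. A chondrocyte-like gate, at least 4 of the markers Acan, Matn1, Matn3, Hapln1, Col9a1, Col9a2, Cnmd and Snorc, held 4677 cells at 7 dpi and none in the other libraries. The 2 gates together are called mesenchymal. Levels (CPM) are the summed UMIs of a gene per 1000000 UMIs of the cells of a class, and the intervals are 95% intervals that cover counting error only. As a baseline for RNA released from other cells, levels of most members are set beside those in NK and T cells (358, 972, 1424 and 799 cells). For some members this is given in 1 library only, and groups within the mesenchymal gates are mostly given without it. Other classes could hold more. At 7 dpi NK and T cells had 136 Ibsp UMIs among 2143669 UMIs in all, and endothelial cells had 86 among 324307. Ptprc, the pan-leukocyte gene CD45, had a UMI in 0.665%, 6.81%, 4.82% and 8.37% of the mesenchymal cells in the 4 libraries, and its part in the results was not tested.

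In mesenchymal cells at 7 dpi, 8 of the 10 members were at least 2-fold higher than in Uninjured muscle and none was 2-fold lower. Over all 17196 genes with at least 10 UMIs in the larger sum, 22.2% were 2-fold higher and 12.2% were 2-fold lower. The median log2 ratio was 2.51 for the members and 0.11 for all genes tested. Ibsp, Spp1, Phospho1, Alpl, Bglap, Bglap2, Enpp1 and Mgp were the higher ones, and Dmp1 and Phex were not past the limit. In the MSC lineage gate alone, a comparison added after the values had been seen, 4 of 9 members with enough UMIs were higher (Alpl, Enpp1, Spp1 and Ibsp) and 1 was lower (Phex), against 20.3% and 11.9% of 16733 genes. The median log2 ratio was then 0.65 for the members and 0.10 for all genes.

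At the earlier time points fewer members differed. At 1 dpi, Spp1, Ibsp, Bglap, Bglap2 and Phex were at least 2-fold higher in mesenchymal cells, 5 of the 9 members with enough UMIs, and no member was 2-fold lower, against 11.0% and 6.39% of 15945 genes. The median log2 ratio was 1.21 for the members and 0.17 for all genes. Without the 1% of cells with the most UMIs of each gene, 2 members (Spp1 and Phex) remained past the limit. At 3 dpi, Enpp1, Spp1, Ibsp and Bglap2 were higher, 4 of 9, and none was lower, against 16.3% and 10.1% of 16354 genes, with medians of 0.82 for the members and 0.11 for all genes.

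**Figure D1:**
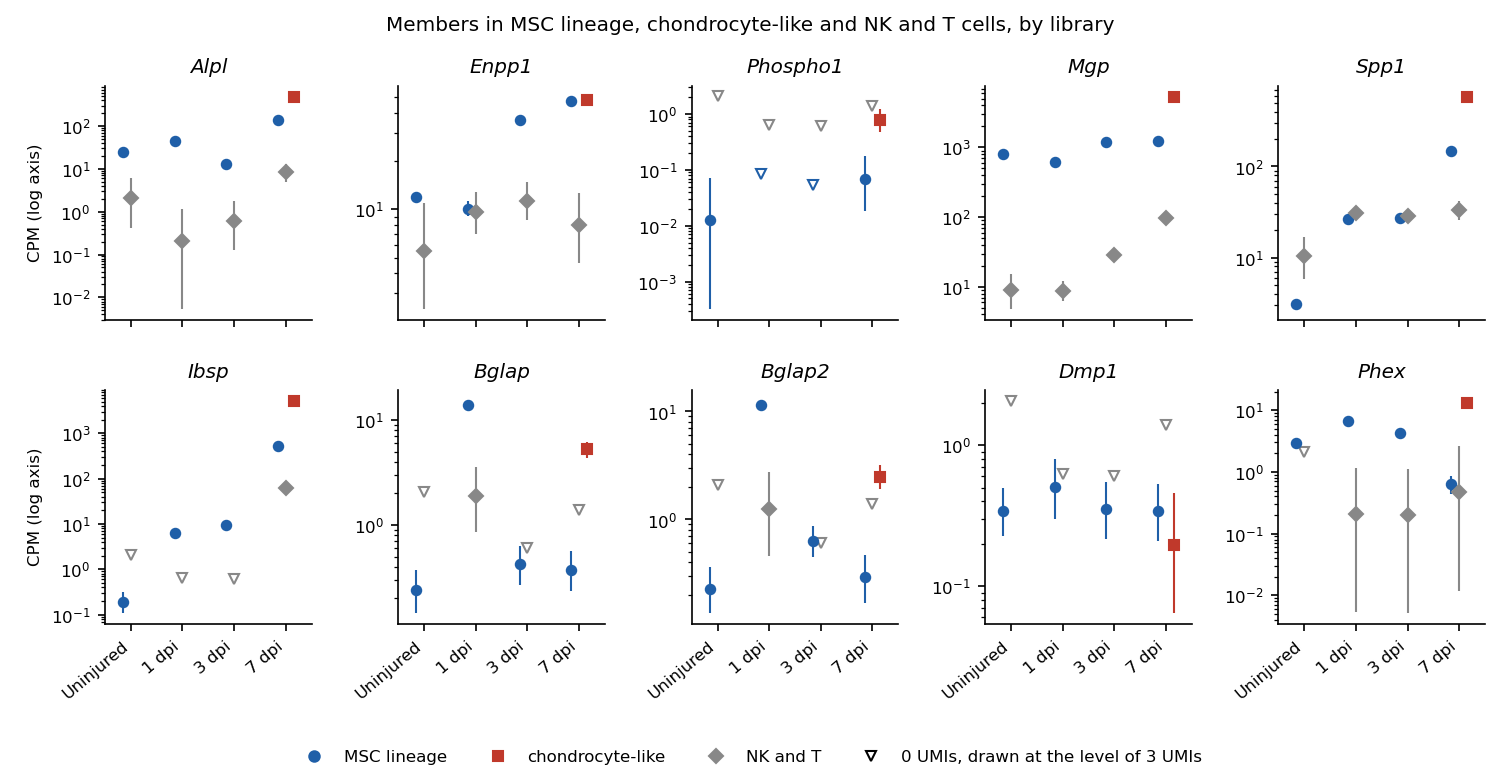
Level of each of the 10 genes (CPM, log axis) in MSC lineage cells, chondrocyte-like cells and NK and T cells in the 4 libraries, with 95% counting intervals and open triangles for 0 UMIs drawn at 3 UMIs. Chondrocyte-like cells at 7 dpi are the highest point for Alpl (481.6), Mgp (5357.4), Spp1 (578.2), Ibsp (5215.2) and Phex (12.9), while Bglap and Bglap2 are highest in MSC lineage cells at 1 dpi (14.0 and 11.5).

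Alpl, the phosphatase that removes pyrophosphate, was at 24.6, 45.4, 12.8 and 135.6 CPM in MSC lineage cells of the Uninjured, 1, 3 and 7 dpi libraries, and at 481.6 CPM in chondrocyte-like cells. The level was lowest at 3 dpi, 1.92-fold under Uninjured (1.76 to 2.09), and highest at 7 dpi, 5.52-fold over Uninjured in the MSC lineage gate (5.25 to 5.80). NK and T cells had 2.07, 0.209, 0.605 and 8.40 CPM, below the MSC lineage cells in every library. Cells were also thinned to 1000 UMIs to equalize depth, leaving out shallower cells (0, 9, 180 and 651 MSC lineage cells and 111 chondrocyte-like cells). After thinning, an Alpl UMI was found in 2.52%, 4.28%, 1.87% and 12.1% of MSC lineage cells, in 31.5% of chondrocyte-like cells and in 1.40% of NK and T cells at 7 dpi. The next highest class of at least 50 cells at 7 dpi was endothelial, at 98.7 CPM (67.5 to 139.3), an interval that overlaps that of MSC lineage cells (132.7 to 138.7). Endothelial cells, whose capillaries are a known site of this enzyme, already had 184.6 CPM at 1 dpi and 137.2 CPM at 3 dpi.

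Phospho1 was barely counted. It had 1, 0, 0 and 4 UMIs in MSC lineage cells of the 4 libraries and 20 UMIs (0.789 CPM, 0.482 to 1.22) in chondrocyte-like cells at 7 dpi. The chondrocyte-like level was 11.5-fold over that of MSC lineage cells at 7 dpi (3.87 to 46.4).

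Enpp1, the source of pyrophosphate, was at 12.0, 10.1, 36.1 and 47.7 CPM in MSC lineage cells, so that it was 3.02-fold over Uninjured at 3 dpi (2.79 to 3.26) and 3.98-fold at 7 dpi (3.70 to 4.29). At 1 dpi the level in MSC lineage cells was close to that in NK and T cells, 9.62 CPM (7.04 to 12.8). B cells of that library were higher, at 19.1 CPM (15.3 to 23.6), so leukocytes are not a clean baseline for this gene. Chondrocyte-like cells had 47.8 CPM and a ratio to MSC lineage cells of 1.00 (0.936 to 1.07). Outside the mesenchymal gates, Schwann cells had 44.7, 73.1, 33.5 and 37.7 CPM, above every other class of at least 50 cells in the Uninjured and 1 dpi libraries. Macrophages had 4.59, 18.7, 16.5 and 7.13 CPM.

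Mgp, the calcification inhibitor, was the member with the most UMIs in mesenchymal cells, 363119 over the 4 libraries. Its level in MSC lineage cells was 816.8, 619.7, 1186.3 and 1251.9 CPM, a spread of 1.32-fold lower to 1.53-fold higher than Uninjured, and chondrocyte-like cells had 5357.4 CPM. The 3.05-fold difference of mesenchymal cells at 7 dpi was thus past 2-fold with the chondrocyte-like cells and not without them. An Mgp UMI was found in 84.8% of thinned chondrocyte-like cells and in 54.2% of thinned MSC lineage cells at 7 dpi, against 12.7% of NK and T cells. That baseline was itself higher at 7 dpi, with 97.5 CPM in NK and T cells (84.7 to 111.6) against 8.96 CPM in the Uninjured library.

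Spp1 was at 3.08, 26.3, 27.2 and 146.2 CPM in MSC lineage cells and at 578.2 CPM in chondrocyte-like cells. The 1 and 3 dpi levels were 8.54-fold and 8.84-fold over Uninjured, but their intervals overlapped those of NK and T cells, 31.0 CPM (26.2 to 36.4) and 28.6 CPM (24.1 to 33.8). B cells were lower, at 14.4 CPM (11.1 to 18.4) and 12.1 CPM (6.02 to 21.6). In the Uninjured library the MSC lineage cells were below the NK and T cells (10.3 CPM). At 7 dpi the MSC lineage level was above that of NK and T cells, 33.1 CPM (25.9 to 41.8), and 47.4-fold over Uninjured (41.8 to 54.1). Few cells held much of this RNA. The 1% of MSC lineage cells with the most Spp1 held 71.4% of its UMIs at 1 dpi, 83.2% at 3 dpi and 46.7% at 7 dpi.

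Ibsp gave the largest difference of the members. MSC lineage cells of the Uninjured library had 15 Ibsp UMIs in all (0.189 CPM), those at 1 dpi 6.24 CPM, those at 3 dpi 9.63 CPM and those at 7 dpi 519.8 CPM, and chondrocyte-like cells had 5215.2 CPM. The 7 dpi level was 2743.9-fold over Uninjured in the MSC lineage gate (1663.4 to 4903.2) and 10236.7-fold in mesenchymal cells (6206.3 to 18290.3). The 15 Uninjured UMIs lay in only 2 cells. The intervals treat UMIs as independent counts and do not cover this, so the size of these ratios is uncertain beyond them. NK and T cells had no Ibsp UMI up to 3 dpi and 63.4 CPM at 7 dpi (53.2 to 75.0), and an Ibsp UMI was found in 6.99% of them after thinning, against 16.0% of MSC lineage cells and 52.9% of chondrocyte-like cells. At 1 and 3 dpi the counts came from few cells, with 61.0% and 67.8% of the UMIs of MSC lineage cells in 4 cells. The order of these libraries depended on the cell filters, which removed 417 of the 643 Ibsp UMIs at 1 dpi and 81 of 631 at 3 dpi. Over all kept cells Ibsp was at 3.16 CPM at 1 dpi and 6.32 CPM at 3 dpi. Over every barcode it was at 7.05 and 5.42 CPM.

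Because Ibsp was also counted in leukocytes at 7 dpi, it was set against Col2a1, the cartilage collagen, whose RNA is likewise abundant in that library. Chondrocyte-like cells had 0.462 Ibsp UMIs per Col2a1 UMI (0.459 to 0.465). The intervals of NK and T cells (0.506, 0.408 to 0.624), muscle cells (0.453, 0.293 to 0.688) and macrophages (0.431, 0.306 to 0.599) held this value, and B cells were just above it (0.735, 0.464 to 1.15). MSC lineage cells had 3.03 Ibsp UMIs per Col2a1 UMI (2.97 to 3.10), with 14.6 (13.7 to 15.6) in those with an Sp7 UMI and 1.85 (1.80 to 1.90) in those without. The subset with Pi16 and Dpp4 had 0.992 (0.861 to 1.14), which overlaps the interval of B cells. Cells with enough cartilage markers went to the chondrocyte-like gate, which tended to keep cells rich in cartilage RNA out of the MSC lineage gate. The higher ratio of MSC lineage than of chondrocyte-like cells may thus be partly set by the gates, and this was not tested. The comparison by Sp7 lies within the MSC lineage gate.

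Dmp1, a protein of late osteoblasts and osteocytes, was low in the mesenchymal cells of every library. MSC lineage cells had 0.341, 0.504, 0.353 and 0.342 CPM, from 27, 18, 20 and 20 UMIs, and chondrocyte-like cells had 0.197 CPM from 5 UMIs. The intervals of all these values overlapped. Outside the mesenchymal gates, 238 muscle cells held 13 Dmp1 UMIs at 3 dpi. At 7 dpi, 178 muscle cells held 6 and 204 pericytes and smooth muscle cells held 10. These counts per cell were higher than those of the 6330 and 10882 MSC lineage cells of the same libraries. At 7 dpi, 132 Dmp1 UMIs were in 1 barcode that the cell filters removed, a barcode with 964 Spp1 and 369 Ibsp UMIs and chondrocyte-like markers.

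Phex had another pattern from the rest. In MSC lineage cells it was at 2.92, 6.74, 4.23 and 0.632 CPM, 2.31-fold over Uninjured at 1 dpi (1.92 to 2.78) and 4.61-fold under it at 7 dpi (3.25 to 6.72). Chondrocyte-like cells had 12.9 CPM (11.5 to 14.3), 20.3-fold over the MSC lineage cells of the same library (14.4 to 29.4). NK and T cells had at most 1 Phex UMI in any library. In the Uninjured library 168 of the 231 UMIs came from cells with both Pi16 and Dpp4, markers of the fascial progenitors described below. Their level, 4.93 CPM (4.22 to 5.74), was not particular to them. Cells with another fibroblast pair, C7 and Gdf10, had 4.54 CPM (3.04 to 6.53). At 3 dpi the C7 and Gdf10 cells had 19.2 CPM and the Pi16 and Dpp4 cells 4.58 CPM.

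Within the 7 dpi library, chondrocyte-like cells were at least 2-fold over MSC lineage cells for 8 of the 10 members and under them for none, against 4.80% higher and 7.13% lower among 16184 genes. The median log2 ratio was 2.60 for the members and -0.12 for all genes. Phex (20.3-fold), Bglap (14.0-fold, 8.84 to 23.0), Phospho1 (11.5-fold) and Ibsp (10.0-fold, 9.91 to 10.2) differed most. Bglap2 followed at 8.55-fold (4.94 to 15.6), then Mgp at 4.28-fold (4.24 to 4.32), Spp1 at 3.96-fold (3.85 to 4.06) and Alpl at 3.55-fold (3.45 to 3.65). Alpl, which removes pyrophosphate, Phospho1, which releases phosphate, and the calcification inhibitor Mgp were thus all higher in this class. Enpp1 and Dmp1 were not past the limit.

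Type X collagen marks the hypertrophic chondrocyte, and 1208 of the 4677 chondrocyte-like cells had a Col10a1 UMI. Between cells with and without Col10a1, 4 of 9 members were at least 2-fold higher (Phospho1, Ibsp, Bglap and Phex) and none was lower, against 2.54% and 2.91% of 14209 genes, with a median log2 ratio of 0.98 for the members and -0.04 for all genes. Phospho1 was counted with 8 against 12 UMIs, and its interval ran from 0.709 to 5.32. Bglap was just past the limit, at 8.52 against 4.15 CPM. Its near copy Bglap2 went the other way, at 1.74 against 2.73 CPM. As the split of reads between these copies is uncertain, osteocalcin as a whole is not shown to be 2-fold higher. When the cells were divided by their number of Col10a1 UMIs into 3469 cells with 0, 379 with 1, 502 with 2 to 9 and 327 with 10 or more, Ibsp was at 3364.1, 5358.9, 11011.7 and 16007.9 CPM. Phex was at 5.79, 9.59, 27.7 and 65.8 CPM, Alpl at 413.4, 533.6, 647.1 and 883.3 CPM, and Spp1 at 464.5, 753.6, 867.2 and 1143.5 CPM, each in increasing order. This order was not particular to the members. The cartilage collagen Col2a1 had it too, at 9507.8, 12762.1, 13971.6 and 23272.5 CPM. Mgp had the opposite order, with 5835.5, 4671.0, 3697.0 and 3404.6 CPM. Enpp1 had no order, with 46.6, 55.6, 53.2 and 45.3 CPM and overlapping intervals. Median depth was 3656, 3711, 3508.5 and 4595 UMIs per cell in these groups, and after thinning the share of cells with an Ibsp UMI was 44.5%, 61.8%, 77.9% and 92.4%.

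**Figure D2:**
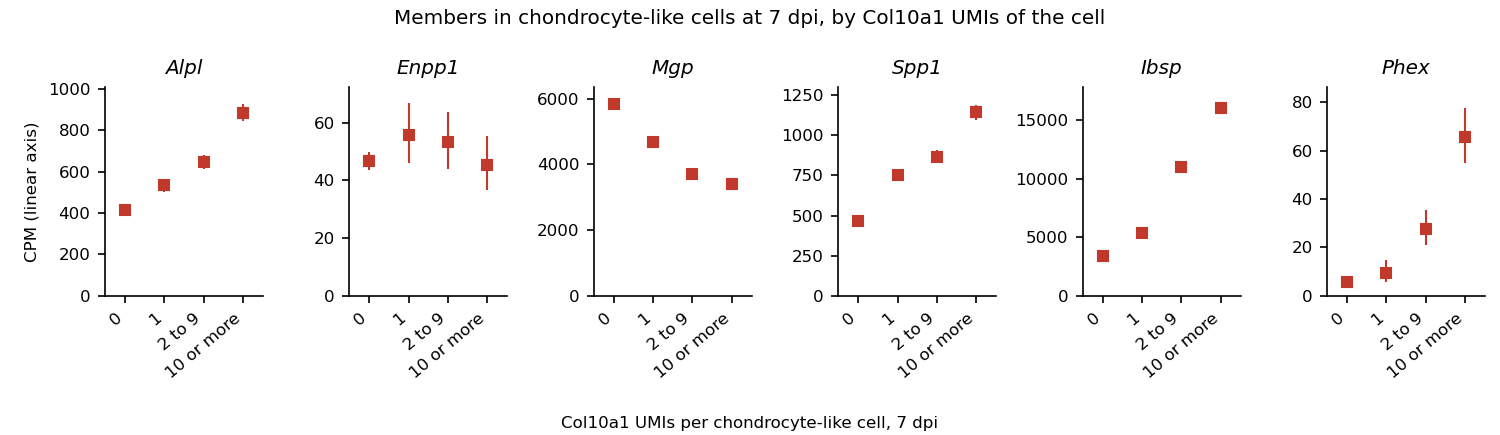
Level of 6 of the genes (CPM, linear axes from 0) in chondrocyte-like cells at 7 dpi, grouped by the number of Col10a1 UMIs in the cell, with 95% counting intervals. Alpl, Spp1, Ibsp and Phex are highest in the 327 cells with 10 or more Col10a1 UMIs, Mgp is highest in the 3469 cells with none (5835.5 against 3404.6), and the Enpp1 intervals overlap.

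Cells of the MSC lineage gate were also divided by Sp7, a gene that osteoblasts need. Sp7 does not single out osteoblast-lineage cells here, since at 7 dpi it was found in 19.7% of chondrocyte-like cells and in 6.77% of MSC lineage cells. A UMI of Sp7 was found in 2, 12, 21 and 737 MSC lineage cells of the Uninjured, 1, 3 and 7 dpi libraries. At 7 dpi, 5 of 9 members were at least 2-fold higher in the cells with Sp7 (Alpl, Ibsp, Bglap, Bglap2 and Dmp1) and none was lower, against 2.60% and 8.13% of 15937 genes, with a median log2 ratio of 1.02 for the members and -0.03 for all genes. Ibsp was at 2354.4 against 318.6 CPM, 7.39-fold (7.22 to 7.56), and Alpl at 384.3 against 108.4 CPM, 3.55-fold (3.37 to 3.72). Dmp1 was 13.7-fold higher (5.14 to 38.6) on 12 UMIs in 3 cells against 8 UMIs. Bglap had 4 against 18 UMIs, a ratio whose interval (0.499 to 6.15) holds 1, and Bglap2 had 5 against 12. Mgp was 1.97-fold lower (1.91 to 2.04), at 667.0 against 1316.1 CPM. Spp1 (1.60-fold) and Enpp1 (1.42-fold) were not past the limit, and cells with Sp7 had a median of 4923 UMIs against 3163.

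In the earlier libraries the few cells with Sp7 held much of the bone matrix RNA of the gate. The 12 cells at 1 dpi held 454 of the 500 Bglap UMIs (4252.1 CPM), 364 of the 410 Bglap2 UMIs and 69 of the 223 Ibsp UMIs (646.2 CPM). Alpl was at 1461.1 CPM in these cells and at 41.1 CPM in the other 3852 cells. The 21 cells at 3 dpi held 344 of the 546 Ibsp UMIs (981.7 CPM) and 262 of the 1544 Spp1 UMIs (747.7 CPM), but only 6 Bglap UMIs.

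MSC lineage cells were also divided by pairs of genes that mark known fibroblast states, with both genes of a pair required, so that a cell may be in more than 1 group. In the Uninjured library, 3329 cells with Pi16 and Dpp4, which mark progenitors of the fascia, had 2.44 CPM of Alpl, 3.70 CPM of Enpp1 and 162.3 CPM of Mgp. The 4951 cells with Smoc2 and Col15a1, which mark fibroblasts within the muscle, had 41.2, 19.6 and 1261.6 CPM of the same genes and held 1906 of the 1947 Alpl UMIs of the gate. Mgp was highest in the tendon-like cells with Tnmd and Thbs4 in the first 3 libraries, at 2462.5 CPM (151 cells), 5375.6 CPM (61 cells) and 4789.0 CPM (163 cells), and was at 1913.9 CPM in the 1686 cells at 7 dpi. Alpl in the Smoc2 and Col15a1 cells was at 41.2, 65.2, 24.2 and 89.5 CPM in the 4 libraries, the same order as in the whole gate, and in the Pi16 and Dpp4 cells at 2.44, 5.16, 4.07 and 27.4 CPM.

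Cells with Lrrc15 and Tnn, genes of activated fibroblasts, numbered 0, 6, 220 and 2043 in the 4 libraries. They had the highest Enpp1 of any pair, 108.1 CPM at 3 dpi (98.9 CPM at the lower interval limit) and 76.8 CPM at 7 dpi, and the highest Spp1 at 7 dpi, 234.5 CPM. Their Mgp was the lowest of any pair at 3 dpi, 258.6 CPM, where Pi16 and Dpp4 cells had 566.6 CPM. Their Ibsp level at 3 dpi, 66.2 CPM, came from 4 of the 220 cells. At 7 dpi Ibsp was at 325.1 CPM in Lrrc15 and Tnn cells, 311.3 CPM in Tnmd and Thbs4 cells, 294.1 CPM in Smoc2 and Col15a1 cells and 94.5 CPM in Pi16 and Dpp4 cells. Classes outside the mesenchymal gates also held Ibsp in that library. Endothelial cells had 86 Ibsp UMIs among 324307 UMIs in all, and B cells had 36 among 243872. Per UMI, the endothelial level was close to that of Smoc2 and Col15a1 cells. Endothelial and B cells were both above the Pi16 and Dpp4 cells. The part of released RNA in the levels of the pairs was not tested. The Lrrc15 and Tnn cells were deeper than the rest at 3 dpi, with a median of 22340 UMIs.

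**Figure D3:**
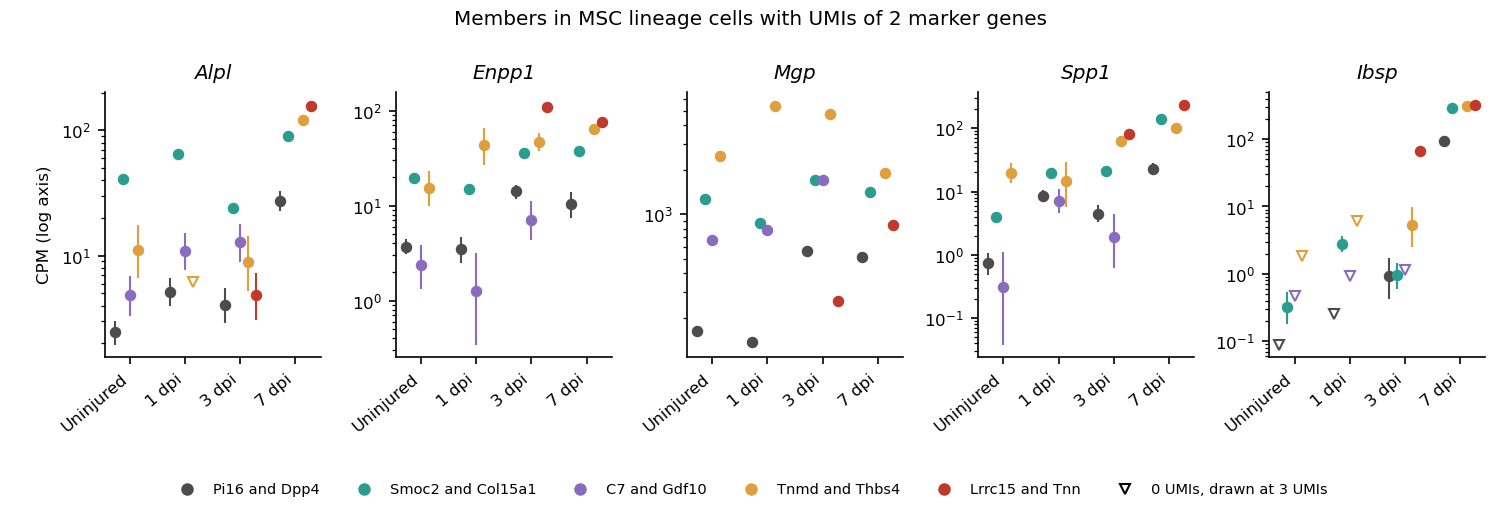
Level of 5 of the genes (CPM, log axes) in MSC lineage cells that had UMIs of both genes of a marker pair, by library, for groups of at least 50 cells, with 95% counting intervals and open triangles for 0 UMIs drawn at 3 UMIs. Mgp is highest in Tnmd and Thbs4 cells in each library, and Enpp1 at 3 and 7 dpi is highest in Lrrc15 and Tnn cells (108.1 and 76.8).

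Members were also compared cell by cell at 7 dpi, at the fixed depth of 1000 UMIs. Among chondrocyte-like cells, Alpl was found in 41.0% of the 2415 cells with an Ibsp UMI and in 20.8% of the others, and Spp1 in 32.3% and 16.8%. Mgp was found in 84.6% and 85.0%, and Enpp1 in 5.42% and 5.25%, nearly equal shares. Among MSC lineage cells, Alpl was found in 27.2% of the 1641 cells with Ibsp and in 9.16% of the others. Enpp1 went the other way with Alpl, in 2.19% of the 1234 cells with Alpl and in 4.78% of those without. Cells of 1 library are not replicates, and these shares describe that library.

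Spp1 in monocytes and macrophages, where osteopontin is a secreted cytokine, was at 1057.5, 1125.0, 514.3 and 348.4 CPM in 247, 1629, 824 and 274 cells. The levels at 3 and 7 dpi were 2.06-fold (1.94 to 2.18) and 3.03-fold (2.74 to 3.37) under Uninjured. The Uninjured and 7 dpi levels rested on few cells, since 4 cells held 63.9% of the 2075 Uninjured UMIs and 4 cells held 59.8% of the 440 at 7 dpi. The intervals do not cover this. The share of thinned cells with a UMI was 12.1%, 30.0%, 14.7% and 8.82%, highest at 1 dpi. Without the 1% of cells with the most Spp1, the log2 ratio to Uninjured was 0.92 at 1 dpi, -0.61 at 3 dpi and -1.48 at 7 dpi, so that the 3 dpi difference was then under 2-fold. In the first 3 libraries the macrophages had the highest Spp1 level of any class with at least 50 cells. At 7 dpi the highest were 82 neutrophils (634.8 CPM, 507.7 to 783.9) and the chondrocyte-like cells, whose interval (568.9 to 587.7) lies within that of the neutrophils.

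In macrophages the calls were few. At 1 dpi Enpp1 alone was past 2-fold (4.08-fold higher, 2.11 to 9.02), 1 of 4 members with enough UMIs and with none lower, against 15.4% higher and 6.04% lower of 11734 genes. At 3 dpi Enpp1 (3.60-fold) and Mgp (6.08-fold) were higher and Spp1 was lower, against 16.1% and 2.65% of 10480 genes. At 7 dpi Mgp (11.7-fold) and Ibsp (at least 27.5-fold, with 0 UMIs in Uninjured set to 3) were higher and Spp1 was lower, against 5.79% and 4.03% of 8789 genes. The median log2 ratios over the 4, 3 and 3 members with enough UMIs were 0.47, 1.85 and 3.55 at the 3 time points, and over all genes 0.19, 0.27 and 0.07. With 3 members the median is the value of a single gene, Enpp1 at 3 dpi and Mgp at 7 dpi. Mgp in macrophages was at 6.63, 9.15, 40.3 and 77.6 CPM and at or near the NK and T level in the same libraries (8.96, 8.79, 28.8 and 97.5 CPM), and Ibsp at 7 dpi was at 42.0 CPM against 63.4 CPM in NK and T cells. Col1a1, a collagen of fibroblasts, was likewise 5.50-fold over Uninjured in the macrophages at 7 dpi (557.5 against 101.4 CPM), and the part of free RNA in these differences was not tested.

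Outside the mesenchymal gates, Mgp was also counted in cells of the vessel wall. Endothelial cells had 5233.0 CPM (65 cells), 7464.5 CPM (119 cells) and 767.8 CPM (73 cells) at 1, 3 and 7 dpi, and the 21 Uninjured cells were under the minimum of 50 cells. Pericytes and smooth muscle cells had 94.2 CPM in the Uninjured library (87 cells), where Schwann cells had 105.4 CPM, and 2435.7 CPM at 7 dpi (204 cells), with too few cells between. At 7 dpi the order was chondrocyte-like, pericytes and smooth muscle, MSC lineage and endothelial, with no overlap of the intervals. Neutrophils (295.2 CPM) and B cells (164.0 CPM) came next, with overlapping intervals, and the other classes of at least 50 cells were at 108.7 CPM or less.

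Schwann cells and muscle cells also had Spp1. Schwann cells had 184.4, 313.0, 118.4 and 226.2 CPM of Spp1. Muscle cells had 0 UMIs of Spp1 in the Uninjured library, 2 UMIs at 1 dpi, 363.0 CPM at 3 dpi (339.9 to 387.2) and 32.3 CPM at 7 dpi (21.9 to 45.8). The 7 dpi interval overlapped that of NK and T cells, and 29 of the 31 UMIs were in 3 cells. Divided at 3 dpi by Myog, a gene of differentiating myoblasts, a division chosen after the values had been seen, 81.2% of the 80 cells with Myog and 32.3% of the 158 cells without it had an Spp1 UMI. The levels of the 2 groups were 317.3 and 411.5 CPM and the thinned shares 22.5% and 18.4%, and the cells with Myog were the deeper ones (medians of 14318 and 3767 UMIs).

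**Figure D4:**
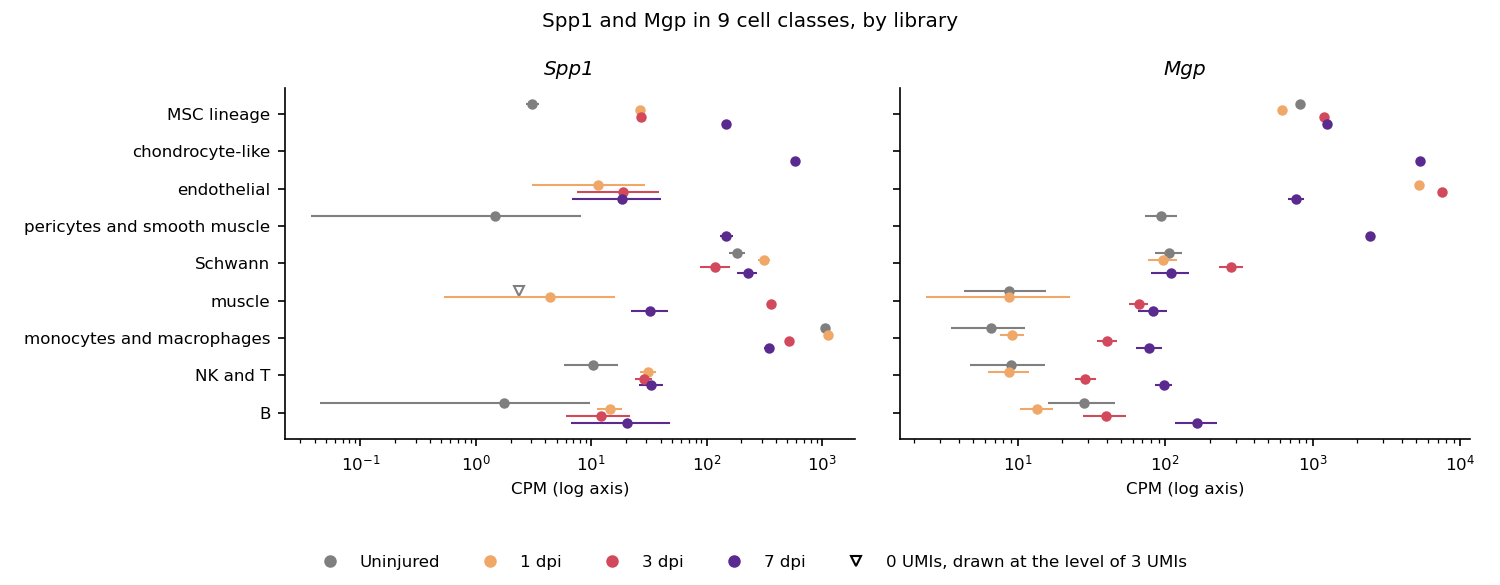
Level of Spp1 and Mgp (CPM, log axes) in 9 cell classes of each library, for classes of at least 50 cells, with 95% counting intervals and an open triangle for 0 UMIs drawn at 3 UMIs. Spp1 in macrophages is between 348.4 and 1125.0 and in MSC lineage cells between 3.08 and 146.2, and Mgp in MSC lineage cells is between 619.7 and 1251.9, with NK and T cells between 8.79 and 97.5.

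Osteocalcin was counted mostly at 1 dpi and mostly in a few barcodes. Over every deposited barcode, Bglap and Bglap2 together had 42, 22811, 65 and 381 UMIs in the Uninjured, 1, 3 and 7 dpi libraries. At 1 dpi, 4 barcodes held 21508 of them (94.3%), with 10347, 5726, 3430 and 2005 UMIs, which were 20.6%, 15.5%, 17.5% and 8.49% of all UMIs of those barcodes. They were also rich in Col1a1 (5852, 4294, 2114 and 3371 UMIs) and had 8, 4, 3 and 2 UMIs of Sp7, 52, 192, 49 and 53 UMIs of Ibsp and 0, 1, 0 and 0 UMIs of Ptprc. All 4 passed the MSC lineage gate but were among the barcodes with the highest doublet scores and were removed, 2 of them also for their depth. Of the 22811 UMIs, 984 were in kept cells.

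Among kept MSC lineage cells Bglap was at 0.240, 14.0, 0.423 and 0.376 CPM and Bglap2 at 0.227, 11.5, 0.635 and 0.291 CPM. The 1 dpi levels were 58.3-fold (36.9 to 97.7) and 50.5-fold (31.5 to 86.0) over Uninjured, but 88.0% of the Bglap UMIs were in 4 cells. With doublets kept the log2 ratio of Bglap at 1 dpi was 8.92, and with no cell filter it was 10.69, against 5.87. NK and T cells at 1 dpi had 1.88 CPM of Bglap (0.861 to 3.57), and MSC lineage cells without Sp7 had 1.29 CPM. At 7 dpi no barcode had more than 36 osteocalcin UMIs, and all 7 with at least 10 were chondrocyte-like.

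**Figure D5:**
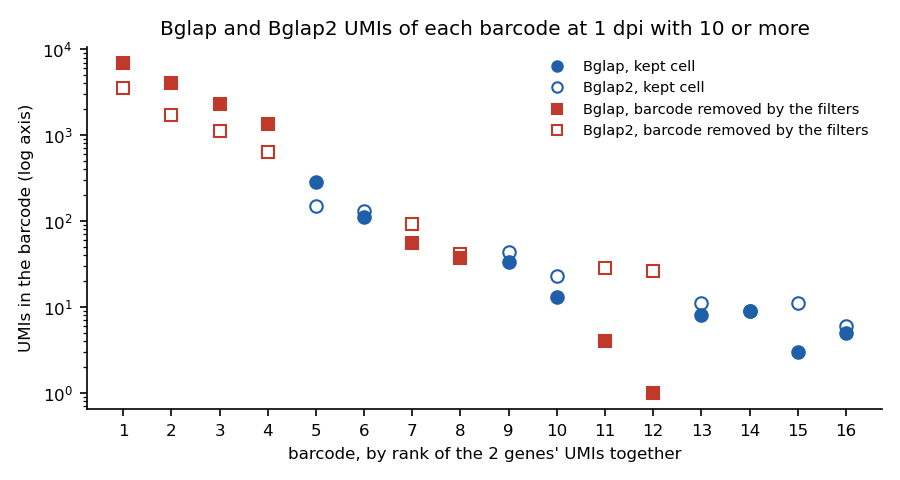
UMIs of Bglap (filled) and Bglap2 (open) on a log axis in the 16 barcodes at 1 dpi that had at least 10 of the 2 together, ranked by their sum, in blue for kept cells and in red for barcodes the filters removed. The first 4 barcodes, all removed, hold 94.3% of the library's osteocalcin UMIs, and 8 of the 16 were kept.

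Among 19 other genes of mineralization, bone matrix and their control, 15 had enough UMIs in mesenchymal cells at 7 dpi, of which 6 were at least 2-fold over Uninjured and 1 was under it, with a median log2 ratio of 0.42, against the shares of 22.2% and 12.2% over all genes. The higher ones were Sp7 (0.0253 to 27.1 CPM), Runx2 (13.1-fold, 11.9 to 14.4), Nt5e, which makes adenosine from AMP (3.12-fold), Col1a1 (2.83-fold), the phosphate transporter Slc20a1 (2.62-fold) and Mepe (at least 6.29-fold), and the lower one was the kinase Fam20c (2.17-fold). At 1 dpi 1 of 14 was higher (Sp7) and 3 were lower (Sparc 2.92-fold, Col1a1 2.77-fold and Vkorc1 2.18-fold), against 11.0% and 6.39% of all genes. At 3 dpi 3 of 14 were higher (Slc20a1, Runx2 and Sp7) and 3 lower (Nt5e, Smpd3 and Omd), against 16.3% and 10.1% of all genes. The higher share at 3 dpi was near that of all genes, and the lower share was above it, on only 3 genes. Between chondrocyte-like and MSC lineage cells at 7 dpi, 5 of 15 were higher and none lower, against 4.80% and 7.13% of all genes. These were Smpd3, a sphingomyelinase needed for mineralization (12.5-fold, 11.7 to 13.3), Nt5e (9.04-fold), Mepe (6.92-fold, 2.39 to 24.4), Omd (6.13-fold) and Sp7 (3.17-fold). Smpd3 was also 2.34-fold higher in the chondrocyte-like cells with Col10a1 (2.23 to 2.46) and, like Phex, lower in MSC lineage cells at 7 dpi than in Uninjured muscle (5.28-fold, 104.4 to 19.8 CPM).

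The genes whose levels were most like those of a member were ranked by Pearson's r of log2(CPM + 10) over 36 groups, a library and class of at least 50 cells each, among 14426 genes. The groups share libraries and depth, and r is given as a description. Ibsp was most like Col2a1 (0.977), Acan (0.960) and Col9a2 (0.950), all genes of cartilage matrix. Acan and Col9a2 are markers of the chondrocyte-like gate, and that class, where Ibsp was highest, is among the groups. Their high r with Ibsp is therefore partly set by the gating. Col2a1 is not among the gate markers, but its r has a like limit. At 7 dpi it was at 11277.2 CPM in chondrocyte-like cells and at 171.3 CPM in MSC lineage cells. NK and T cells of that library held 0.506 Ibsp UMIs per Col2a1 UMI, against 0.462 in chondrocyte-like cells. The part of released RNA in r was not tested. Mgp was most like Col8a1 (0.935), Bgn (0.900) and Tm4sf1 (0.881), and Alpl most like Megf6 (0.881), Mpped2 (0.880) and Fat4 (0.870). Phex was most like Zfp385b (0.934), Bmp8a (0.901) and Smpd3 (0.883). Enpp1 and Spp1 had weaker neighbours, led by Farp2 (0.798) and Lamtor1 (0.744), and Bglap and Bglap2 were most like each other (0.945). Phex was above the added 10 CPM only in chondrocyte-like cells at 7 dpi. Bglap and Bglap2 were above it only in MSC lineage cells at 1 dpi. The r values of these genes thus rest largely on few groups. Among the members themselves, Alpl and Mgp were at 0.796 and Alpl and Ibsp at 0.632.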

How the data were processed

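The deposited matrices held counts, which the authors made with Cell Ranger 5.0.0 on mm10 as whole UMIs per gene and barcode, and their notes also name Seurat 3.1.1. The methods mention down-sampling of reads, and whether it preceded these counts is not given in the sources used here. Barcodes were kept within 2 SD of their library's mean log10 UMIs and genes and with at most 10% mitochondrial UMIs, and the 7.5% with the highest Scrublet score (scanpy 1.11.5) were removed per library. A class needed 3 of its 8 markers and a lead of 2 over every other class. Kept cells that met this for no class were left out of all classes. They were 4.74%, 8.66%, 20.0% and 13.7% of the kept cells in the Uninjured, 1, 3 and 7 dpi libraries. At 3 dpi they held 27.6% of the Spp1 UMIs of kept cells, against 22.5% in mesenchymal cells. Median UMIs per barcode were 8629, 5561.5, 4214 and 3083.

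UMIs were summed per library and class and divided by all UMIs of those cells. CPM carry exact Poisson intervals, shares Clopper-Pearson intervals and ratios conditional binomial intervals. A gene was called at a ratio of at least 2 with at least 10 UMIs in the larger sum, and a sum of 0 was set to 3 UMIs per group. With 1 library per time point no test was run. Sums and intervals were tried on simulated Poisson counts, the model that the intervals assume. Those counts lack the clustering of UMIs in few cells seen here, so their coverage in these data is not shown. The named genes were the 10 members, 19 pathway genes past the fold and the 3 genes most like each member. The members and lists were chosen with earlier results of these data known. The gene IDs matched GENCODE M21 on GRCm38 for 99.6%, which gave the positions. The scripts ran in Python 3.11.15 with pandas 2.3.3, numpy 2.4.6 and scipy 1.17.1, and matplotlib 3.10.9 drew the plots.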

Additional observations from a re-analysis of the deposited data

Results flagged for a closer look

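The summed level of Spp1 lay in opposite directions in mesenchymal cells and in macrophages. At 3 dpi it was 8.84-fold over Uninjured in mesenchymal cells and 2.06-fold under Uninjured in monocytes and macrophages, and at 7 dpi 89.8-fold over and 3.03-fold under. The difference between the classes was not tested, because each time point had 1 library. The share of macrophages with an Spp1 UMI at 3 dpi was not lower, at 28.8% against 22.3% in Uninjured, or 14.7% against 12.1% after thinning. In the Uninjured macrophages 4 cells held 63.9% of the Spp1 UMIs, and in those at 7 dpi 4 cells held 59.8%. The interval of mesenchymal cells at 3 dpi overlapped that of NK and T cells but not that of B cells, at 12.1 CPM (6.02 to 21.6).

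The barcodes that the cell filters removed at 1 dpi held 21827 UMIs of Bglap and Bglap2 together, against 5, 4 and 140 in the removed barcodes of the Uninjured, 3 and 7 dpi libraries. They enter the comparisons only where doublets are kept or no cell filter is used.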

How the results depend on the processing

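The numbers of members past 2-fold were recomputed under 12 or 13 other settings per comparison. They ranged from 2 to 6 at 1 dpi, 3 to 5 at 3 dpi and 5 to 9 at 7 dpi in mesenchymal cells, from 1 to 2, 2 to 3 and 3 to 4 in macrophages, from 6 to 9 for chondrocyte-like against MSC lineage cells and from 3 to 6 for Col10a1. Beyond 1.5 times, the count at 1 dpi in mesenchymal cells was 2 without the 1% of cells with the most UMIs of the gene (against 5), that at 1 dpi in macrophages was 2 with each cell weighted the same (against 1), and that at 7 dpi was 5 in MSC lineage cells alone (against 8), the last added after the data had been seen. Of 687 values for single genes, 188 left their counting interval and none past 2-fold changed direction. Spp1 in macrophages at 3 dpi was under 2-fold after thinning (log2 ratio -0.97) and with each cell weighted the same (-0.98). Scaling on genes with at least 50 UMIs in both sums centred the 1 dpi comparison at 0.18. With 1 library per time point, neither a paired analysis nor leaving out a replicate was possible. Dmp1 had 90 UMIs in mesenchymal cells and overlapping intervals in all libraries, and Phospho1, with 25 UMIs, had 24 of them at 7 dpi.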
